A study of Mus musculus with 5 samples.

Results

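The T cell receptor alpha and delta locus on mouse chromosome 14 was examined in 5 ATAC-seq libraries of sorted thymocytes. ATAC-seq marks open chromatin, because a transposase cuts and tags accessible DNA. Peaks overlapping the stretch of 1900 kb from 53 to 54.9 Mb (mm9) were taken from every deposited list, and 344 of 332881 peaks lay there. Merging the 5 lists into regions, with peaks that overlapped by at least 1 bp joined, left 242 regions in the locus out of 157434 in the genome. The locus was divided into 4 parts by position. The V part ran to 54.7 Mb, the delta D-J-C part to 54.775 Mb, the J alpha part to 54.835 Mb, and the C alpha part, with the alpha enhancer and Dad1, to 54.9 Mb.

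Tcra and Tcrd encode the alpha and delta chains of the T cell receptor and share this locus. Tcrd lies inside Tcra, between the V segments and the J alpha segments, so that joining a V to a J alpha segment removes the delta D, J and C segments in between. γδ T cells build their receptor from the delta segments, whereas double-positive (DP) thymocytes, which carry both CD4 and CD8 on their way to becoming αβ T cells, join V to J alpha. The alpha enhancer lies between the C alpha segment and Dad1, which encodes a subunit of the oligosaccharyltransferase complex. In the RefSeq table of GRCm38, Trac, the C alpha segment, is followed by Dad1 and then by Abhd4, and 74 of the 136 listed V segments and V pseudogenes carry the letters d or n that mark copies of a duplicated block. The table's coordinates are not those of mm9, so no peak was assigned to a segment, an enhancer or a gene. For the same reason the defining markers of γδ and DP cells were not looked up here.

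Both transgenic libraries came from TCRbeta KO mice with a Sox13 transgene and 1 Sox13 allele that carries an ECFP reporter (TCRbeta KO.Sox13tg+.Sox13 ECFP KI/+). They were sorted as CD24+ γδ thymocytes with high CFP (transgenic SOX13hi) or with low to absent CFP (transgenic SOX13lo). SOX13hi and SOX13lo were the same sorts from TCRbeta KO reporter mice without the transgene (TCRbeta KO.Sox13 ECFP KI/+). DP thymocytes came from wild type mice, which had neither the knockout, nor the reporter, nor the transgene. All mice were C57BL/6, and each γδ library was made from 40 × 1000 sorted cells. The sources used here give neither the age of the mice, nor any pooling of animals, nor the promoter of the transgene. Cell type and genotype differed together between γδ and DP libraries and cannot be told apart. CFP reports the Sox13 gene, and SOX13 itself was not measured.

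Each group held 1 library, so no difference below has a replicate check and no p-value is given. The lists held 63932 peaks in transgenic SOX13hi, 33155 in transgenic SOX13lo, 54435 in SOX13hi, 67482 in SOX13lo and 113877 in DP. The read depth is unknown. Counts were therefore expressed per 1000 peaks of the list, and were repeated with every list limited to its 33155 highest-scoring peaks, called equal list length below. Intervals are 95% intervals, exact Poisson on counts, exact Clopper-Pearson on shares and exact conditional on ratios, and cover counting error only. They treat peaks as independent, although neighbouring peaks can belong to 1 open site. Pooled γδ counts enter a site once for each library that has it, so pooled intervals may be too narrow. All lines of the SOX13lo list carry the name SOX13hi in the file itself. The sample's label was followed, and pooled γδ values are also given without this library. The comparisons of SOX13lo with SOX13hi and with transgenic SOX13lo rest on it.

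DP cells had the most peaks in the locus, both in number and as a share of the list. The locus held 48 peaks in transgenic SOX13hi, 21 in transgenic SOX13lo, 37 in SOX13hi and 37 in SOX13lo, against 201 in DP. These were 0.751, 0.633, 0.680 and 0.548 of every 1000 peaks in the 4 γδ lists, against 1.77 in DP. The 4 γδ libraries pooled had 0.370 times the DP rate (0.296 to 0.461), and 0.396 times without SOX13lo (0.310 to 0.504). Lists of equal length held 18, 21, 16 and 10 peaks of the locus in the γδ libraries and 30 in DP, a pooled ratio of 0.542 (0.346 to 0.865). Taken alone, the intervals of that ratio reached 1.11 for transgenic SOX13hi, 1.26 for transgenic SOX13lo and 1.01 for SOX13hi. Only that of SOX13lo (0.145 to 0.701) stayed below 1. Pooled without SOX13lo the ratio was 0.611 (0.385 to 0.988). The rest of chromosome 14 held 21.9, 10.7, 19.1 and 22.5 peaks per Mb in the γδ lists and 36.4 in DP. Against that local density the locus was 1.15, 1.04, 1.02 and 0.868 times as dense in the γδ lists and 2.91 times as dense in DP. Fewer cells with an open site and less opening per cell cannot be told apart in these bulk libraries. Joining also removes DNA from this locus, and the DNA copies left in each part were not measured. The peak rates are therefore not rates per DNA copy.

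**Figure D1:**
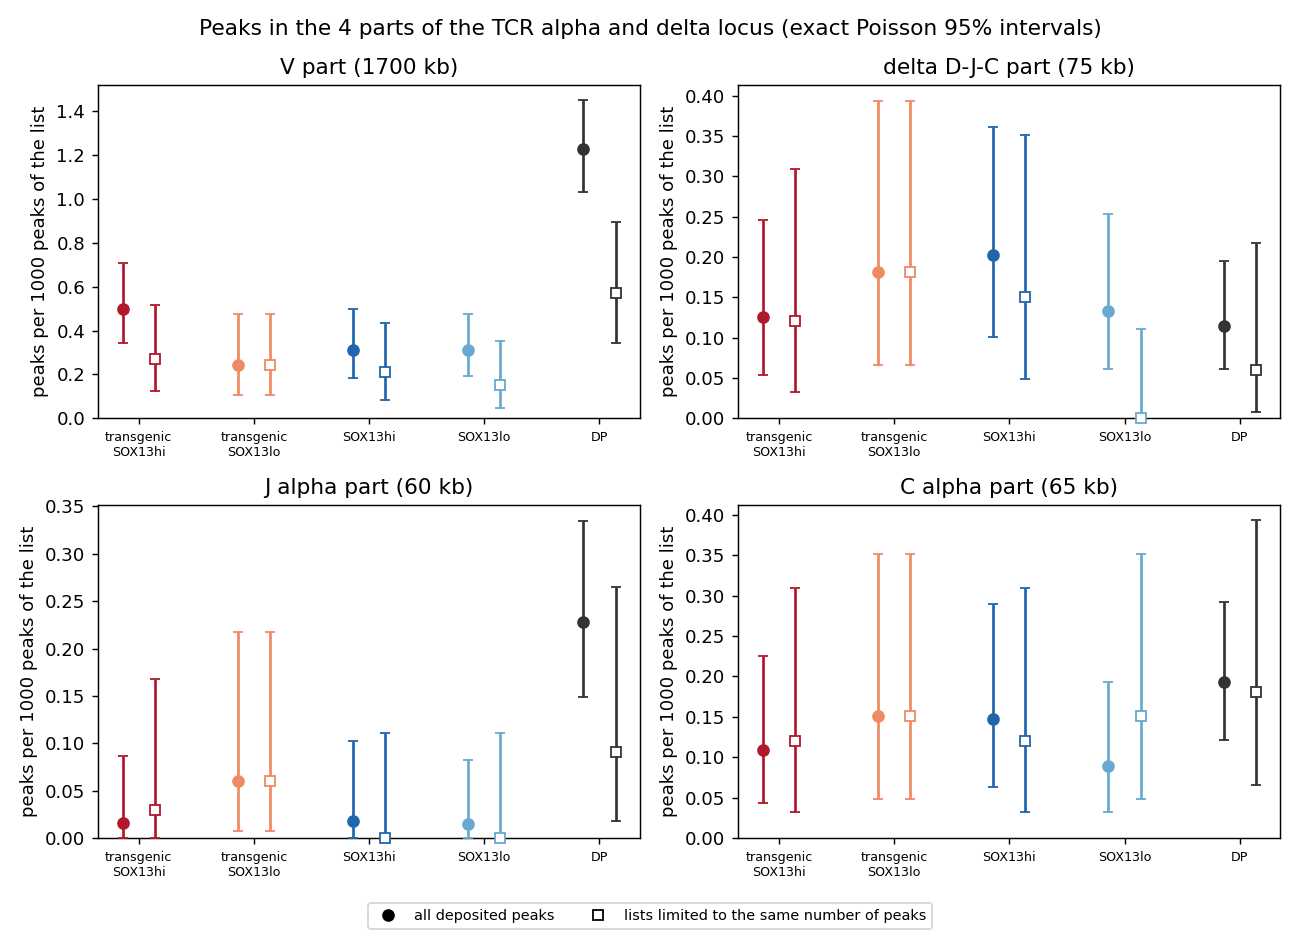
Peaks per 1000 peaks of the list (vertical axis) in the 4 parts of the locus for the 5 libraries (horizontal axis). Filled circles use all deposited peaks, open squares use lists of equal length, and bars are exact Poisson 95% intervals; with all peaks DP stands highest in the V part (1.23), the J alpha part (0.228) and the C alpha part (0.193), whereas in the delta part it is the lowest (0.114).

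The V part, 1700 kb of V segments, held most DP peaks of the locus. It had 32 peaks in transgenic SOX13hi, 8 in transgenic SOX13lo, 17 in SOX13hi and 21 in SOX13lo, against 140 in DP. Per 1000 peaks of the list these were 0.501 (0.342 to 0.707), 0.241 (0.104 to 0.475), 0.312 (0.182 to 0.500) and 0.311 (0.193 to 0.476) in the γδ lists, against 1.23 (1.03 to 1.45) in DP. All 4 γδ libraries were below DP, and none of their intervals met that of DP. The pooled ratio of γδ to DP was 0.290 (0.217 to 0.385), and 0.306 without SOX13lo (0.221 to 0.419). In lists of equal length there were 9, 8, 7 and 5 peaks in the γδ lists and 19 in DP, a pooled ratio of 0.382 (0.207 to 0.720). For transgenic SOX13hi and transgenic SOX13lo taken alone the intervals of that ratio reached 1.10 and 1.01.

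Within the V part most DP peaks lay in 1 stretch, which was not the one next to the D and J segments. The stretch from 54000001 to 54500000 held 12 peaks in transgenic SOX13hi, 2 in transgenic SOX13lo, 6 in SOX13hi and 4 in SOX13lo, against 82 in DP, which is 58.6% of the DP peaks of the V part. In lists of equal length it held 1, 2, 2 and 1 peaks of the γδ libraries, against 12 of the 19 DP peaks. The same stretch had 37.5%, 25.0%, 35.3% and 19.1% of the V peaks of the γδ libraries. Its bounds are those of a fixed section and do not mark an edge of the DP peaks. The window of 100 kb from 54000001, inside it, held 3 DP peaks, and the one from 53900001, outside it, held 16. The densest DP windows of 100 kb began at 54400001 (26 peaks) and 54300001 (23 peaks). The γδ libraries had 1 to 4 peaks in the first of these windows and 0 to 4 in the second. DP had more peaks than transgenic SOX13hi in 13 of 17 windows, than transgenic SOX13lo in 15, than SOX13hi in 14 and than SOX13lo in 14. The window from 53600001 went the other way for SOX13hi and SOX13lo, with 2 and 3 peaks against 1 in DP, and the first window did so for transgenic SOX13hi, with 4 against 3. The longest stretches without a peak of any list were 222.5 kb from 53430586, 201.9 kb from 53754803 and 130.6 kb from 53258717. Whether reads in the duplicated V blocks could be placed uniquely is not given in the sources used here, so a missing peak there does not show closed chromatin.

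**Figure D2:**
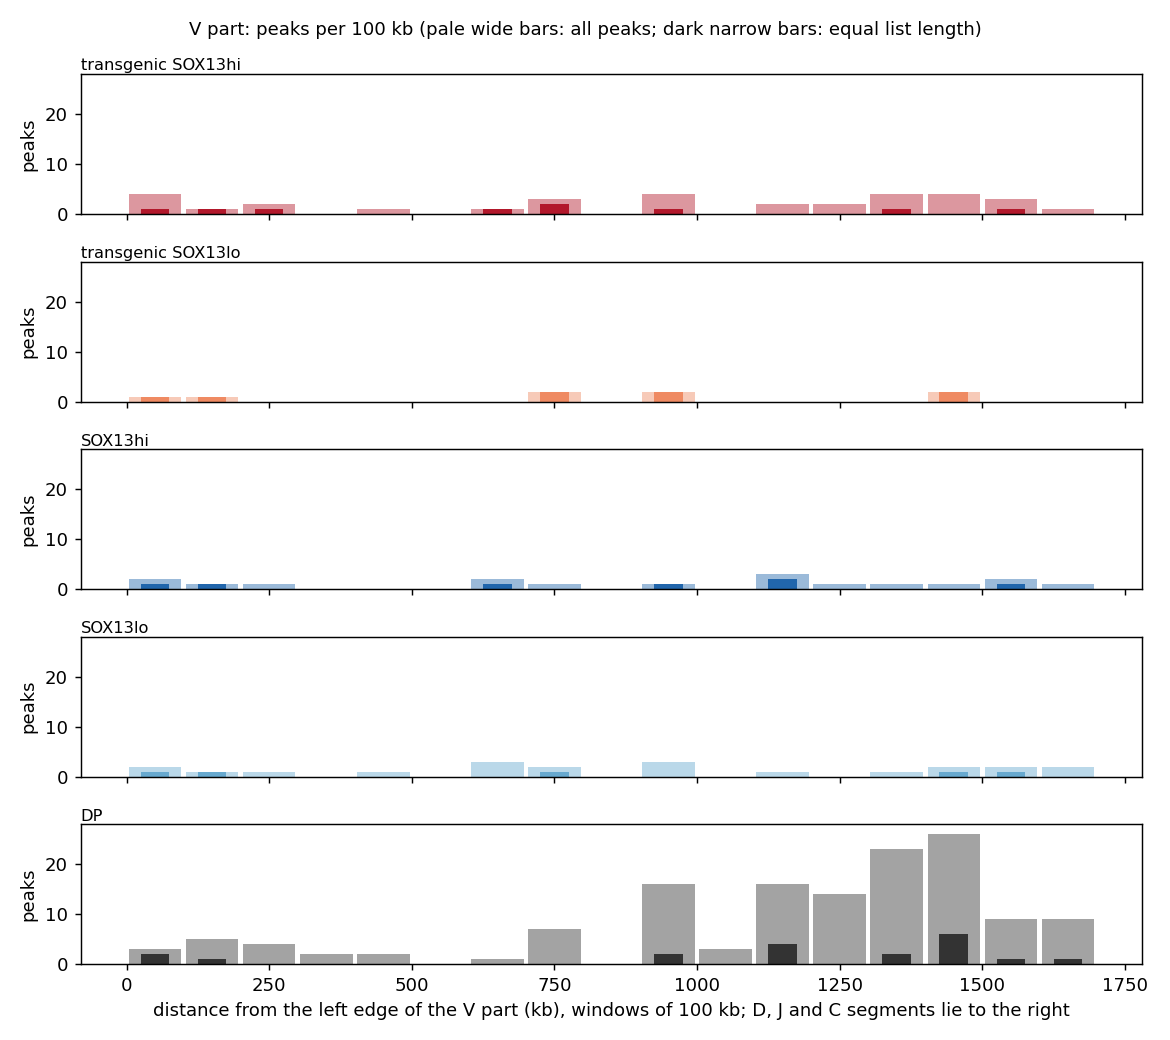
Peaks per window of 100 kb (vertical axis) along the V part (horizontal axis, kb from its left edge), 1 panel per library. Pale bars count all peaks and dark bars count peaks of the equal-length lists; DP reaches 26 peaks in a window where the γδ libraries have at most 4, and 2 windows hold no peak in any library.

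A few V sites were open in every library. The one that ranked highest on average lay at 53047392 to 53047648. It ranked at the 85.2 percentile in transgenic SOX13hi, 53.1 in transgenic SOX13lo, 86.6 in SOX13hi, 89.9 in SOX13lo and 96.7 in DP. A percentile here is the place of the region's highest-scoring peak within its own list. It depends on the length of the list, so percentiles of different lists do not show a change. The region at 53186646 to 53186884 followed, at percentiles 65.3, 73.6, 76.9 and 82.1 in the γδ lists and 89.5 in DP. The other 2 V regions of all 5 libraries were at 53754610 to 53754802 and 53957160 to 53957284, and lay at the 20.6 to 76.0 percentile. Both leading sites lie in the part of the V array farthest from the D and J segments, where the first 5 windows held 8, 2, 4 and 5 peaks of the γδ libraries and 16 of the 140 DP peaks.

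The V regions that DP held and no γδ library held stood lower in the DP list than these leading sites. The highest of them lay at 54179999 to 54180043 (85.9 percentile of the DP list), 54422341 to 54422385 (84.5), 54496310 to 54496570 (80.2) and 54173667 to 54173708 (79.0). All 4 fell in the stretch that was densest in DP. Only the one at 54173667 lay in a cluster of peaks within 1000 bp that held no γδ peak. Some V regions were found in 1 γδ fraction or genotype only. At 53653096 to 53653134, both SOX13hi libraries had a peak (66.9 percentile in transgenic SOX13hi and 61.9 in SOX13hi), no SOX13lo library did, and DP had a weak one (22.9). At 54414907 to 54415045 it was the reverse, with peaks in transgenic SOX13lo (60.5) and SOX13lo (65.3), none in the SOX13hi libraries, and 1 in DP (80.2). Transgenic SOX13hi and SOX13hi had peaks near it, starting at 54414371 and 54414416, so that the cluster of peaks within 1000 bp held all 5 libraries. The region at 53983814 to 53983895 was found in both transgenic libraries (45.4 and 42.2) and in DP (88.7), but in neither non-transgenic γδ library. A peak of SOX13lo began just beyond its end, at 53983906.

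The delta D-J-C part, 75 kb, was the one part in which, with all peaks, no γδ library had a lower peak rate than DP. It held 8 peaks in transgenic SOX13hi, 6 in transgenic SOX13lo, 11 in SOX13hi and 9 in SOX13lo, against 13 in the much longer DP list. Per 1000 peaks of the list these were 0.125 (0.0540 to 0.247), 0.181 (0.0664 to 0.394), 0.202 (0.101 to 0.362) and 0.133 (0.0610 to 0.253), against 0.114 (0.0608 to 0.195) in DP. The intervals of all 5 libraries overlapped. The pooled ratio was 1.36 (0.700 to 2.81), or 1.45 without SOX13lo (0.712 to 3.08), so a higher γδ rate was not detectable with all peaks. When DP was limited to the length of each γδ list in turn, the numbers were 8 against 3, 6 against 2, 11 against 2 and 9 against 4, in the order of libraries above. The ratio for SOX13hi then became 5.50 (1.20 to 51.1), and for the other libraries it was 2.25 to 3.0 with intervals that included 1. At equal list length SOX13lo kept 0 peaks in the delta part, with an upper bound of 0.111 of every 1000 peaks, while transgenic SOX13lo kept 6, SOX13hi 5, transgenic SOX13hi 4 and DP 2. The pooled ratio was then 1.88 (0.436 to 16.9), an interval that included 1.

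The delta peaks of different libraries lay near each other at a few places, but most delta regions were not shared. By overlap, 21 of 29 delta regions were found in 1 library. In all 5 libraries there were 0 of 29, with an upper bound of 11.9%, against 9.45% in the genome. When peaks of any list within 1000 bp of each other were grouped into clusters, the delta part had 7 clusters, 3 of them with peaks in all 5 libraries. The richest in γδ cells was at 54766315 to 54769700, with 4 peaks in transgenic SOX13hi, 1 in transgenic SOX13lo, 6 in SOX13hi and 5 in SOX13lo, against 2 in DP. These peaks covered 359, 28, 358 and 318 bp in the γδ libraries and 57 bp in DP, the least in transgenic SOX13lo. The best peak there stood at rank 21646 in transgenic SOX13hi, 26395 in transgenic SOX13lo, 23724 in SOX13hi and 36078 in SOX13lo, against 25196 in DP, so that all but SOX13lo kept a peak of this cluster at equal list length. The cluster at 54756835 to 54758135 included the strongest delta peak of a γδ library, a peak of 135 bp in transgenic SOX13hi with a score of 40 (83.9 percentile). Best percentiles there were 34.9 in transgenic SOX13lo, 59.8 in SOX13hi, 20.6 in SOX13lo and 37.9 in DP. The third cluster of all libraries, at 54743851 to 54745782, had 1, 3, 1 and 2 peaks in the γδ libraries and 4 in DP.

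DP had peaks in all 7 delta clusters, and 5 of these also held γδ peaks. Its strongest delta peak, at the 79.4 percentile, was at 54772776 to 54772804, near the J alpha side. SOX13hi had a peak within that cluster (66.7 percentile), and the other γδ libraries had none. A DP peak at the 77.6 percentile lay in the cluster richest in γδ peaks, at 54766315 to 54769700. DP also held the only peaks of the clusters at 54733071 to 54733108 (50.1 percentile) and 54774574 to 54774668 (37.9). No delta cluster was without a DP peak. The 16 delta regions (55.2%, 35.7 to 73.6, of 29) that γδ libraries held and DP lacked were thus in clusters with DP peaks but did not overlap them. In the genome 29.9% of regions were of this kind. In lists of equal length 10 of 12 delta regions were so (83.3%, 51.6 to 97.9), against 45.3% in the genome.

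The J alpha part, 60 kb, held very few peaks in γδ libraries and many in DP, mostly of low score. It held 1 peak in transgenic SOX13hi, 2 in transgenic SOX13lo, 1 in SOX13hi and 1 in SOX13lo, against 26 in DP. Per 1000 peaks of the list these were 0.0156, 0.0603, 0.0184 and 0.0148, against 0.228 (0.149 to 0.335) in DP. Of the 26 DP peaks, 12 had the lowest score of the DP list, and the median percentile of the 26 was 22.9. The pooled ratio was 0.100 (0.0300 to 0.265), and 0.116 without SOX13lo (0.0293 to 0.333). In DP the J alpha part was 11.9 times as dense as the rest of chromosome 14, against 0.743 to 0.875 times in 3 γδ libraries and 3.12 times in transgenic SOX13lo, which rests on 2 peaks. When DP was limited to the length of each γδ list, it had 8, 3, 7 and 9 peaks there. The intervals of the ratio then stayed below 1 for transgenic SOX13hi (0.125, 0.00282 to 0.932) and SOX13lo (0.111, 0.00254 to 0.802). They reached 5.82 for transgenic SOX13lo and 1.11 for SOX13hi. At equal list length there was 1 peak in transgenic SOX13hi, 2 in transgenic SOX13lo, 0 in SOX13hi and SOX13lo, and 3 in DP, and the pooled ratio, 0.250 (0.0335 to 1.87), could no longer be set apart from 1.

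Most DP peaks of the J alpha part were on the side of the V and D segments, where the first J alpha segments lie. The 30 kb on that side had 20 DP peaks, and the 30 kb toward C alpha had 6. The peaks formed 10 clusters, of which the largest, at 54790305 to 54792490, had 7 DP peaks and no γδ peak. The DP-only region with the highest score lay in it, at 54791578 to 54791605 (76.0 percentile). It was followed by 54795261 to 54795447 (73.3), 54801133 to 54801161 (72.4) and 54790305 to 54790496 (67.4). The region at 54801133 to 54801161 had transgenic SOX13lo peaks on both sides, ending at 54801121 and starting at 54801210. They did not overlap it, so its absence from γδ libraries is a matter of overlap only. The percentiles of these DP-only regions are middling, below the leading peaks of the C alpha part.

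Every γδ peak of the J alpha part lay within 1000 bp of a DP peak. In transgenic SOX13lo both peaks were at 54801094 to 54801238, in a cluster with 3 DP peaks, and the stronger stood at the 67.4 percentile. In SOX13lo the peak was at 54788311 to 54788338, with the lowest score of that list. Both SOX13hi libraries shared the site at 54829744 to 54829814 with DP. There transgenic SOX13hi stood at the 61.4 percentile, while SOX13hi and DP each had the lowest score of their lists.

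**Figure D3:**
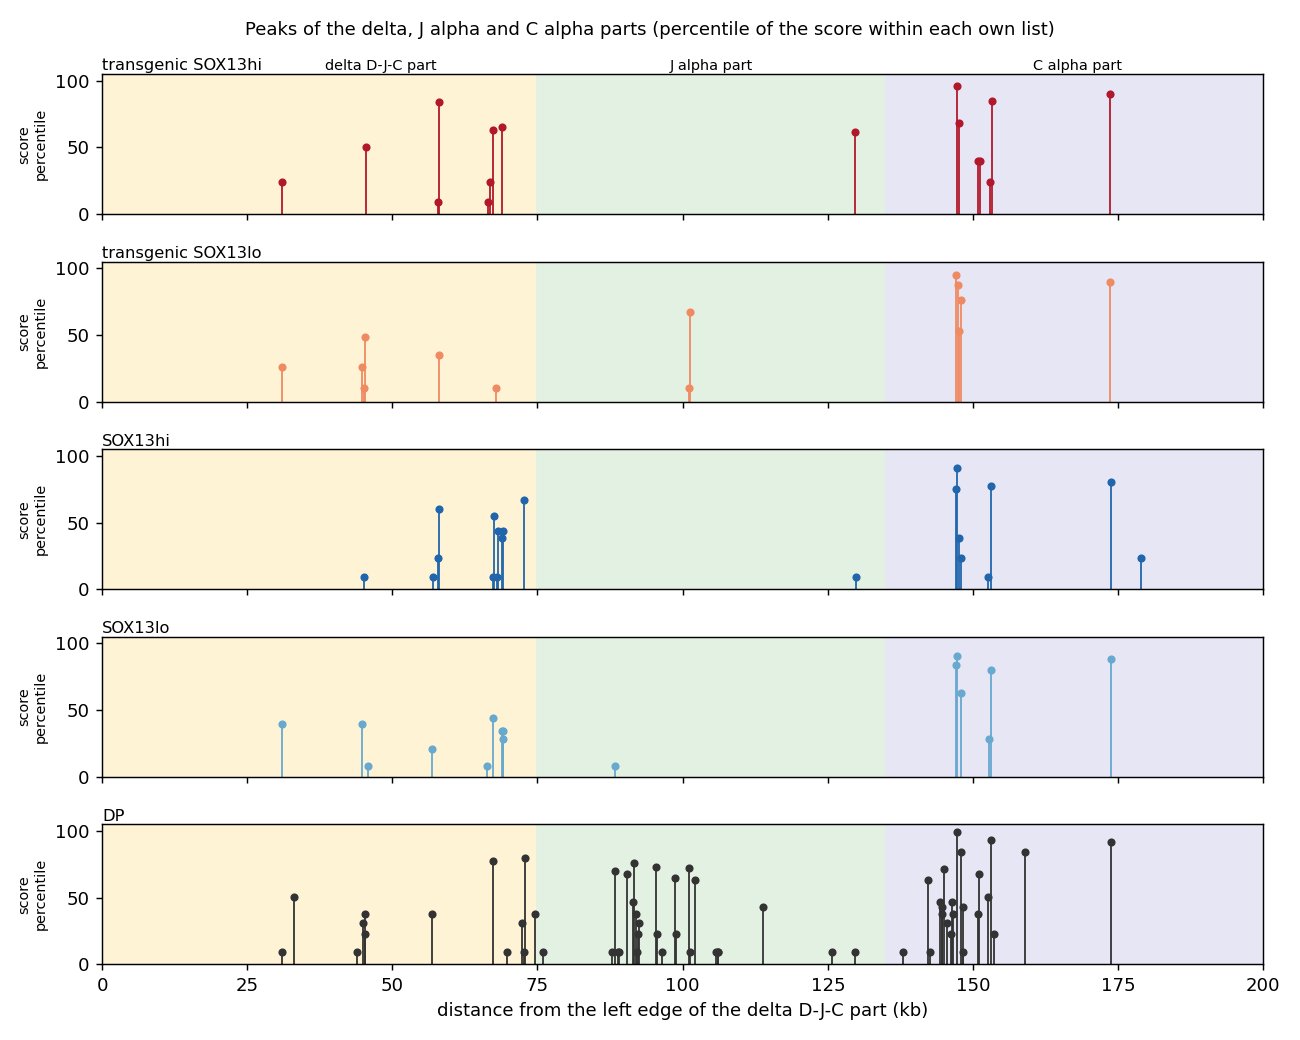
Peaks of the delta, J alpha and C alpha parts (shaded), with the distance from the left edge of the delta part (kb) on the horizontal axis and the percentile of the peak's score within its own list on the vertical axis, 1 panel per library. γδ libraries have 1 or 2 peaks in the J alpha part, against 26 in DP, and every library has its highest peak of this stretch at the same site in the C alpha part.

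The balance of delta and J alpha peaks within a library does not need the length of its list as a denominator. It was not corrected for DNA removed by joining, which was not measured. Of the peaks in these 2 parts, 8 of 9 lay in the delta part in transgenic SOX13hi (88.9%, 51.8 to 99.7). The numbers were 6 of 8 in transgenic SOX13lo (75%, 34.9 to 96.8), 11 of 12 in SOX13hi (91.7%, 61.5 to 99.8) and 9 of 10 in SOX13lo (90.0%, 55.5 to 99.8). In DP they were 13 of 39 (33.3%, 19.1 to 50.2). Pooled, γδ libraries had 34 of 39 (87.2%, 72.6 to 95.7), and without SOX13lo they had 25 delta peaks against 4 J alpha peaks. Pooling counts a shared site once per library. Counted as clusters within 1000 bp, the contrast was smaller. Any γδ library had peaks in 5 delta and 3 J alpha clusters, and DP in 7 and 10. The order thus turned round between γδ cells and DP, and among γδ libraries the interval of transgenic SOX13lo was the one that reached into that of DP. DP limited to the length of a γδ list had 2 to 4 delta peaks of 5 to 13, or 22.2% to 40.0%, with intervals reaching up to 85.3%. In lists of equal length SOX13lo had no peak in either part, and 15 of 18 pooled γδ peaks (83.3%, 58.6 to 96.4) were in the delta part, against 2 of 5 in DP (40.0%, 5.27 to 85.3).

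**Figure D4:**
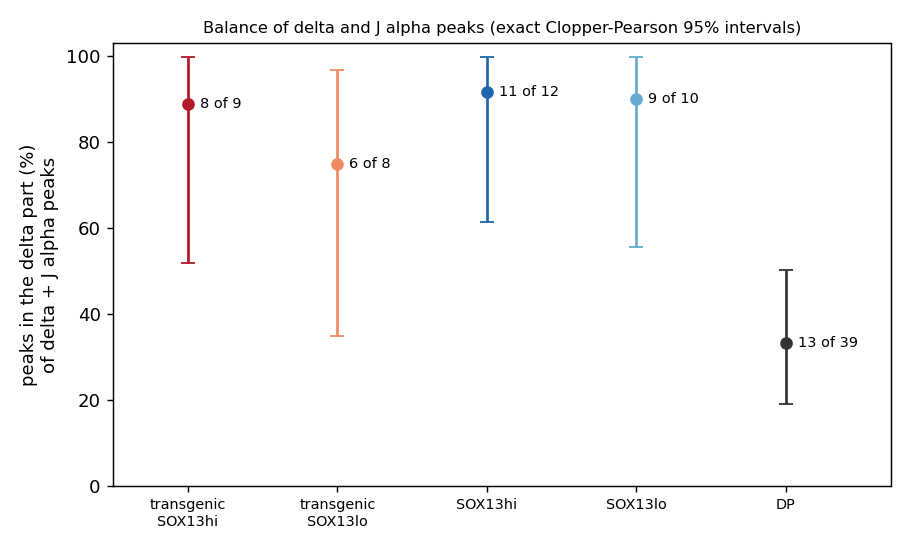
Share of delta peaks among all peaks of the delta and J alpha parts (vertical axis, percent) in the 5 libraries (horizontal axis), with exact Clopper-Pearson 95% intervals and the numbers of peaks beside each point. The γδ libraries lie between 75% and 91.7%, and DP lies at 33.3%.

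The C alpha part, 65 kb, held the site with the highest score of the locus in every library. It had 7 peaks in transgenic SOX13hi, 5 in transgenic SOX13lo, 8 in SOX13hi and 6 in SOX13lo, against 22 in DP. Per 1000 peaks these were 0.110, 0.151, 0.147 and 0.0889, against 0.193 (0.121 to 0.293) in DP, and the pooled ratio was 0.615 (0.335 to 1.14), or 0.683 without SOX13lo (0.354 to 1.31). Lists of equal length gave 0.750 (0.285 to 2.31), from 4, 5, 4 and 5 peaks in the γδ libraries against 6 in DP. No difference in peak rate between γδ cells and DP was detectable here.

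The leading site of the whole locus in every library was at 54846933 to 54847486. The best peak scored 107 in transgenic SOX13hi (96.0 percentile), 67 in transgenic SOX13lo (94.6), 68 in SOX13hi (91.0), 92 in SOX13lo (90.6) and 488 in DP (99.2). It belonged to a cluster at 54844350 to 54848379 in which the γδ libraries had 2, 4, 4 and 3 peaks, against 12 in DP. Those peaks covered 462, 768, 623 and 218 bp in the γδ libraries and 1183 bp in DP. DP also had 2 peaks at 54842274 to 54842594, on the J alpha side of this cluster, where no γδ library had any.

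The second site common to all libraries was at 54873667 to 54873758, where each library had 1 peak. It stood at the 90.1 percentile in transgenic SOX13hi, 89.6 in transgenic SOX13lo, 80.1 in SOX13hi, 88.1 in SOX13lo and 91.7 in DP. Between these sites, the cluster at 54852605 to 54853579 was present in transgenic SOX13hi (84.8 percentile), SOX13hi (77.6), SOX13lo (79.9) and DP (92.9), with 665 bp covered in DP and 60 to 100 bp in those γδ libraries. Transgenic SOX13lo, whose list was the shortest, had no peak in it. A DP peak at 54858913 to 54858941 (84.0 percentile) had no γδ counterpart. SOX13hi alone had a peak at 54878862 to 54878890, at the 23.1 percentile.

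Few of the locus regions were shared. Of the 242 regions, 194 were found in 1 library, and 6 (2.48%, 0.915 to 5.32) were found in all 5, against 9.45% of all regions in the genome. At equal list length 4 of 51 regions were common to all, against 20.1% in the genome. DP alone held 158 regions (65.3%, 58.9 to 71.3), against 40.3% in the genome. Without SOX13lo it was 165 of 235 (70.2%), against 48.1%. By part, DP alone held 110 of 160 V regions (68.8%, 61.0 to 75.8) and 24 of 28 J alpha regions (85.7%, 67.3 to 96.0). It alone held 16 of 25 C alpha regions (64.0%, 42.5 to 82.0), where the interval lay above the share in the genome. In the delta part it held 8 of 29 (27.6%, 12.7 to 47.2). In lists of equal length DP alone held 18 of 51 locus regions (35.3%, 22.4 to 49.9), against 14.5% in the genome, and 1 of 12 delta regions. No region of the locus was present in all 4 γδ libraries and absent from DP (0 of 242, with an upper bound of 1.51%), and in the genome 0.694% of regions were, which lies within that bound.

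The γδ fractions were also compared with each other. The whole locus gave a rate 1.19 times as high (0.696 to 2.08) in transgenic SOX13hi as in transgenic SOX13lo, and 1.24 times as high (0.764 to 2.01) in SOX13hi as in SOX13lo. Transgenic SOX13hi had 1.11 times the rate of SOX13hi (0.705 to 1.74), and transgenic SOX13lo had 1.16 times that of SOX13lo (0.643 to 2.03). All of these intervals included 1, as did those of each of the 4 parts in the same comparisons. The largest difference by part, among those with 5 or more peaks in each library, was in the V part. Transgenic SOX13hi there had 2.07 times the rate of transgenic SOX13lo (0.936 to 5.21) and 1.60 times that of SOX13hi (0.864 to 3.08). At equal list length these became 1.13 (0.385 to 3.35) and 1.29 (0.426 to 4.06). The comparisons share libraries and are not independent.

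The fractions had few locus regions in common. Of the regions present in SOX13hi or SOX13lo, 13 of 54 (24.1%, 13.5 to 37.6) were in both, against 40.3% in the genome. Transgenic SOX13hi and transgenic SOX13lo had 9 of 57 in common (15.8%, 7.48 to 27.9), against 32.6%. For transgenic SOX13hi and SOX13hi it was 20 of 61 (32.8%, 21.3 to 46.0), against 43.9%, and for transgenic SOX13lo and SOX13lo 8 of 44 (18.2%, 8.19 to 32.7), against 29.1%. The share in the genome lay above the interval of the locus in the first 2 of these pairs and within it in the other two. In lists of equal length, SOX13hi and SOX13lo shared 33.3% (13.3 to 59.0) of their locus regions, against 51.4% in the genome. Transgenic SOX13hi and transgenic SOX13lo shared 27.6% (12.7 to 47.2), against 44.4%, transgenic SOX13hi and SOX13hi 50% (28.2 to 71.8), against 54.8%, and transgenic SOX13lo and SOX13lo 33.3% (14.6 to 57.0), against 42.0%. All 4 genome shares then lay within the intervals. The upper 25% of the list by score held 10.4% of the locus peaks of transgenic SOX13hi (3.47 to 22.7) and 19.1% of those of transgenic SOX13lo (5.45 to 41.9). It held 16.2% of those of SOX13hi, and as many of those of SOX13lo (6.19 to 32.0 for both), against 11.4% of those of DP (7.39 to 16.7). The intervals of transgenic SOX13hi and DP lay below 25%, and those of the other libraries included it. The part of peak score in the sharing was not tested. Among the γδ regions, 7 of 84 (8.33%, 3.42 to 16.4) were in both SOX13hi and in no SOX13lo library, against 4.06% in the genome. Of the 7, 6 were in the V part, which held 50 of the 84 γδ regions. In the opposite direction there was 1 region of 84, against 0.961% in the genome.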

How the data were processed

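For each library the authors deposited a list of peaks, each with a whole-number score. The genome build is mm9, from the submitters' processing notes. What the score counts, and which aligner, peak caller, threshold and read filters were used, is not given in the sources used here. Scores served only to order peaks inside their own list. Peaks were assigned to a part by their centre. Regions were made by merging the 5 lists, and the score percentile of a region is that of its best peak in the list. Lists of equal length keep the 33155 highest-scoring peaks, with ties at the limit broken by a seeded random order. That tie rule replaced an order by chromosome after the first values had been seen. With every tied peak kept, SOX13hi would have 19 locus peaks in place of 16, DP 31 in place of 30, and the other lists no more than reported. The regions named were taken by rule within each part, as the highest-scoring ones of each pattern of presence. The parts, rules and alternatives were chosen with earlier results of these data known. Clusters within 1000 bp, DP limited to the length of each γδ list, and pooled values without SOX13lo were added after the lists were seen, as were clusters and peaks named beyond the rule. The functions were tested on simulated lists. Transgenic SOX13hi and DP have the same index in the labels, which name no sequencing batch. The tools were Python 3.11.15 with scipy 1.17.1, numpy 2.4.6, matplotlib 3.10.9 and pandas 2.3.3.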

Additional observations from a re-analysis of the deposited data

Results flagged for a closer look

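Several ratios of peak rates pointed in opposite directions in the 2 fractions or the 2 genotypes. Each rests on 1 library per group, the difference between the ratios was not tested, and the interval of every ratio included 1. In the V part, transgenic SOX13hi had 1.60 times the rate of SOX13hi, and transgenic SOX13lo had 0.775 times that of SOX13lo. With equal list length both were above 1, at 1.29 and 1.60. In the delta part the same ratios were 0.619 and 1.36, and in the C alpha part 0.745 and 1.70. Lists of equal length gave 1.00 for both in the C alpha part. In the delta part they held 4 peaks in transgenic SOX13hi against 5 in SOX13hi (0.800), and 6 in transgenic SOX13lo against 0 in SOX13lo, so the directions stayed opposite. Transgenic SOX13hi had 0.692 times the delta rate of transgenic SOX13lo, whereas SOX13hi had 1.52 times that of SOX13lo. At equal list length these were 4 peaks against 6 (0.667) and 5 against 0, again opposite. In the C alpha part these ratios were 0.726 and 1.65, and with equal list length both were 0.800.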

How the results depend on the processing

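Of 169 values of the 25 ratios recomputed under alternatives, 159 stayed within the counting interval of the ratio with all peaks, and no ratio whose interval had excluded 1 changed direction. The 159 is a weak check, because some intervals were very wide. For transgenic SOX13lo over SOX13lo in the J alpha part the interval was 0.212 to 240. Assigning peaks to parts by overlap, or counting only autosomal peaks in the denominators, also hardly changed any ratio. The cause of the shifts outside the intervals was not tested. With DP limited to the length of each γδ list, the pooled γδ to DP ratio was 0.526 for the locus, 0.400 for the V part and 3.09 for the delta part. For these values the DP counts were added over cuts of the same DP list. The same DP peaks thus entered more than once, and no interval is given. With equal list length the pooled γδ to DP ratio was 0.542 for the locus. In the V part it was 0.211 with peaks wider than 30 bp. In the C alpha part it was 1.17 with the upper 50% by score. Transgenic SOX13lo over SOX13lo was 2.10 for the locus with equal list length and 2.04 (2.035) with the upper 50%. It was 0.00 in the V part with peaks wider than 30 bp, where transgenic SOX13lo had none. Transgenic SOX13hi over transgenic SOX13lo was 2.42 in the delta part with that filter. Leaving out SOX13lo kept every pooled ratio within its interval. Regions in DP alone, 158 with all peaks, were 18 with equal list length, 58 in the upper 50%, 77 with peaks wider than 30 bp, 101 merged within 200 bp and 64 clusters within 1000 bp. Regions of all 5 libraries, 6 with all peaks, were 1 with peaks wider than 30 bp and 10 as clusters. No ratio could be had where an alternative left 0 peaks in the denominator. Depth, and what a score counts, are unknown, so a shorter list may miss weak sites. No paired analysis was possible because each group holds 1 library, so no replicate could be left out within a group.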
